A study of Mus musculus with 2 samples.

Results

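C1q-positive cells, which came with the label of macrophages, were a rare population in cultures of bone marrow–derived myeloid-derived suppressor cells (MDSC). They numbered 115 of 21035 barcodes, and the label held in part, as described below. A barcode is the DNA tag shared by the transcripts of one droplet, and a unique molecular identifier (UMI) is a count of one captured transcript. A barcode was taken as C1q-positive when C1qa, C1qb and C1qc together reached 10 per 10000 of its UMIs, when it held no UMI of the B cell genes Cd79a, Cd79b and Ms4a1, and when it did not hold 2 or more UMIs of both Ccr7 and Fscn1, which mark migratory dendritic cells. Both libraries came from bone marrow of female C57BL/6 mice of 10 weeks, cultured for 4 days with GMCSF at 50 ng/mL and IL6 at 50 ng/mL, and sequenced by 10x Genomics 5′ single-cell RNA-seq. One culture received the vehicle DMSO and the other received dabrafenib (DAB), a BRAF inhibitor, at 1.5 µmol/L. All groups here are wild type as far as the labels go, no sort is named, and how many mice gave marrow to each culture is not stated in the labels. With 1 library per condition no test between conditions was possible, so every interval below is a 95% interval for counting error only, and the difference between conditions cannot be told apart from the difference between 2 cultures.

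C1q is the recognition subunit of the classical complement pathway. It is assembled from the A, B and C chains, which are encoded by C1qa, C1qb and C1qc, and it binds antibody complexes and the surface of dying cells. Unlike most complement proteins, which come from the liver, C1q is made mainly by macrophages and dendritic cells, and tissue macrophages that clear apoptotic cells are known for high levels of it. GMCSF and IL6 drive bone marrow precursors toward granulocytic and monocytic MDSCs, and macrophages and dendritic cells can arise in the same cultures.

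The C1q genes lie next to each other on the minus strand of chromosome 4 of the mm10 build, within 18675 bases. All 3 genes are annotated as protein coding, C1qb at chr4:136880129-136886187, C1qc at chr4:136889804-136893065 and C1qa at chr4:136895917-136898803. The windows of C1qb and C1qc, the genes matched in the promoter table, are shown because both were counted in cells in which C1qa was at 0; C1qa was not matched. They are RefSeq sequences of GRCm38.p6, read 5′ to 3′ on the minus strand up to the RefSeq start in the case of C1qb (chr4:136886201-136886450, 250 bases) and up to the annotated gene in the case of C1qc (chr4:136893066-136893164, 99 bases). Capitals mark matches to TGCTGA, the half-site bound by MAF family proteins, and GAGGAA, the core bound by PU.1, both factors of macrophage gene expression.
C1qb: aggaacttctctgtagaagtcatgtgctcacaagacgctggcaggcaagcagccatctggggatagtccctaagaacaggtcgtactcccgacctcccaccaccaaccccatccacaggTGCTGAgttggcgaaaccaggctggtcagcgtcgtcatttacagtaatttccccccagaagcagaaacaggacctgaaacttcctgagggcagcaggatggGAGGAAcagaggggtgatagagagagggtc
C1qc: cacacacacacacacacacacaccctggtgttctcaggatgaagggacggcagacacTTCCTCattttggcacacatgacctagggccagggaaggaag
Both strands were searched. The C1qb window held TGCTGA starting 131 bases before its end and GAGGAA starting 30 bases before its end, and the C1qc window held GAGGAA on the opposite strand, printed as TTCCTC, 42 bases before its end. Among all promoter windows of 250 bases, 16.1% held TGCTGA and 23.3% held GAGGAA, and among windows of 99 bases 6.43% and 9.91% did. TGANTCA and TGATGNAA, the sites of AP-1 and of ATF4 with C/EBP, did not occur in these letters in either window. A match is a description of the letters and not of binding.

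The DMSO library held 9855 deposited barcodes and the DAB library 11631, of which 9621 and 11414 had at least 1000 UMIs and at most 10% mitochondrial UMIs. C1q-positive cells had a median of 11872 UMIs and 3131 genes in DMSO and of 10079.5 UMIs and 2730.5 genes in DAB. They gave 1367183 and 209443 UMIs in all. One DAB cell of 56325 UMIs supplied 26.9% of the UMIs of its group, and it scored as a doublet. The libraries shared 152 barcode sequences, and no C1q-positive cell was C1q-positive under the same barcode in both, although 3 carried a barcode that also occurred in the other library.

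The label of the cells as macrophages held in part. All 24 genes of a macrophage identity list had UMIs in the DMSO cells and 22 of 24 in the DAB cells, where Apoe and Cx3cr1 were at 0. All 24 also had UMIs in the other barcodes of each library, so detection alone did not set the cells apart. The list summed to 12713 CPM (UMIs per 1000000 UMIs of the set) in C1q-positive DMSO cells against 5679 in the other DMSO barcodes, and to 11344 against 6761 in DAB, with Lyz2, encoding lysozyme, the most abundant gene. Most of the DMSO excess was in the 55 cells described below as Pf4/Wfdc17-high, where the list without Pf4 summed to 15827 CPM, against 6620 in the other 46 cells and 5609 in the other DMSO barcodes. Of the markers that came with the label, Mmp12, a macrophage elastase, had a UMI in 96 of 101 C1q-positive cells of DMSO and in 11 of 14 of DAB. A UMI alone does not mark the cells, since Mmp12 was also at 1064 and 513 CPM in the other barcodes, against 2772 and 1031. Ccl7, a monocyte-attracting chemokine, was found in 10 of 101 and 6 of 14. A list of 20 genes of tissue-resident and erythroblastic island macrophages summed to only 65.1 CPM in DMSO and 52.5 CPM in DAB, and its defining genes Vcam1, Spic, Siglec1, Cd163, Vsig4, Timd4 and Cd5l were at 0 in both. The cells are therefore called C1q-positive cells.

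Neutrophil and monocyte transcripts were lower in sum than in the other barcodes of the same library, and defining markers of other lineages were largely at 0. The 18 neutrophil genes summed to 5079 CPM in DMSO and 3046 in DAB against 48824 and 42622 in the other barcodes, led by S100a8 and S100a9, and 9 of 101 and 1 of 14 cells carried these S100 genes at over 20 per 10000. Of 10 monocyte genes 9 were detected in each library, at 675 and 793 CPM in sum against 5292 and 2802 elsewhere, led by Chil3 in DMSO and Ifitm6 in DAB. Of 14 dendritic genes 7 and 4 were detected, at 121 and 201 CPM (207 and 156 elsewhere), mostly Tmem123, with Flt3, Ccr7 and Fscn1 at 0, and no barcode had been left out for the last pair. Of 8 basophil and mast cell genes 3 and 2 were detected, at 97.3 and 277 CPM (136 and 219 elsewhere), led by Gata2 in DMSO and Cd200r3 in DAB, and Mcpt8, Prss34, Ms4a2 and Fcer1a were at 0. The 8 megakaryocyte genes summed to 2613 and 1179 CPM, against 80.2 and 122 elsewhere, almost all of it Pf4, while Gp1bb and Gp9 were at 0. B cell genes gave 8 and 2 UMIs, all of Ighm, with Cd79a, Cd79b and Ms4a1 at 0 by the rule, and T and NK genes 3 and 2 UMIs. Eosinophil genes summed to 6.58 and 23.9 CPM (Siglecf led, with 6 and 3 UMIs), erythroid genes to 6.58 and 14.3 CPM (Car2), stromal and endothelial genes to 31.5 and 47.8 CPM (Pecam1), and neutrophil progenitor genes to 35.8 and 4.78 CPM (Prtn3). The part of the neutrophil and monocyte transcripts in the values below was not tested.

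C1q-positive cells made up 1.05% of the DMSO library (101 of 9621, exact 95% interval 0.856% to 1.27%) and 0.123% of the DAB library (14 of 11414, 0.0671% to 0.206%). The share was thus 8.56-fold higher in DMSO (4.87 to 16.2). The cells were chosen by their own C1qa, C1qb and C1qc UMIs, so these counts follow from the rule. The summed C1q level of the DMSO cells ran from 10.1 per 10000 over a median of 21.5 to 135.9, and that of the DAB cells from 10.2 over 11.4 to 28.0. The DAB cells therefore sat close to the limit of the rule, with 12 of 14 between 10 and 20 per 10000 against 44 of 101 in DMSO. The nearest cells inside the limit had 10.11 per 10000 (12 UMIs) in DMSO and 10.16 (3 UMIs) in DAB, and the nearest outside had 9.90 (10 UMIs) and 9.41 (18 UMIs). At least 10 C1q UMIs were counted in 82 of 101 DMSO cells and 7 of 14 DAB cells, so membership in DAB rested on few transcripts in the shallower cells.

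**Figure D1:**
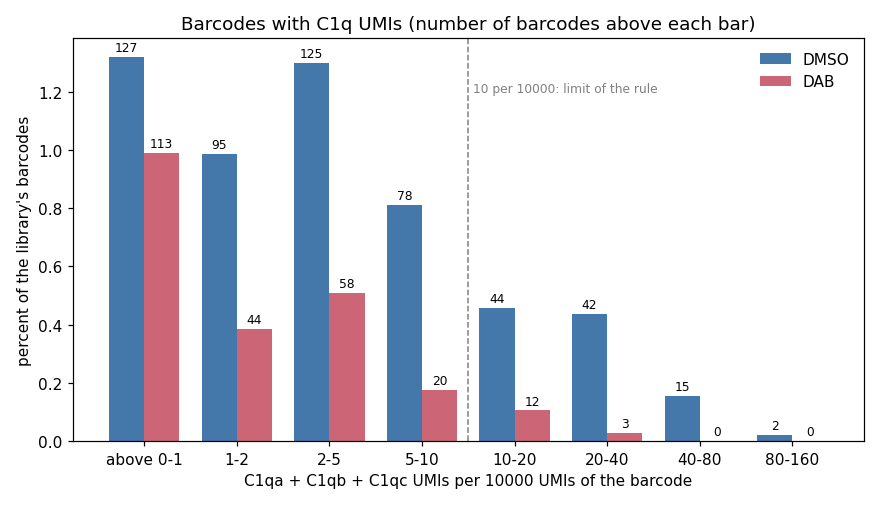
Percent of each library's barcodes (y axis) by the summed C1qa, C1qb and C1qc UMIs per 10000 UMIs (x axis), for barcodes with any C1q UMI, in DMSO (blue) and DAB (red), with the number of barcodes above each bar, before 2 DMSO barcodes and 1 DAB barcode with a B cell UMI were left out. The DAB bars lie under the DMSO bars in every range, and from 40 to 80 per 10000 there were 15 DMSO barcodes and 0 in DAB.

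A C1q UMI was present in 528 DMSO and 250 DAB barcodes, or 5.49% and 2.19%. After each barcode was thinned to 1000 UMIs, which removes the difference in depth (median 8337 UMIs in DMSO and 10587 in DAB), the shares were 2.04% (1.76% to 2.34%) and 0.499% (0.378% to 0.647%). Among barcodes under the limit of 10 per 10000, a C1q UMI was present in 425 of 9518 in DMSO (4.46%) and 235 of 11399 in DAB (2.06%), and after thinning in 1.10% (0.903% to 1.33%) and 0.404% (0.296% to 0.538%). B cells, which do not make C1q, gave the background from free RNA. Their C1q-carrying share was 1 of 109 barcodes (0.917%) in DMSO and 1 of 196 (0.510%) in DAB before thinning, at median depths of 4830 and 5805 UMIs, and 0 in both after thinning, which allows up to 3.33% and 1.86% and so does not bound the shares above. A larger set, barcodes with 50 or more per 10000 of the neutrophil genes S100a8 and S100a9 that were not C1q-positive, had a C1q UMI after thinning in 14 of 5102 in DMSO (0.274%, 0.150% to 0.460%) and in 6 of 6634 in DAB (0.0904%, 0.0332% to 0.197%). Before thinning its 271 C1q UMIs in DMSO lay in 54 barcodes and its 115 in DAB in 36. Whether these UMIs came from free RNA was not tested, so this set is not given as a background.

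C1qa, C1qb and C1qc did not differ between the libraries by the same factor. Over all barcodes C1qa gave 1013 UMIs in DMSO and 31 in DAB, which is 9.51 against 0.188 CPM, 50.7-fold lower in DAB (log2 ratio -5.66, -6.23 to -5.15). C1qc gave 1726 and 265 UMIs, 10.1-fold lower (-3.34, -3.53 to -3.15). C1qb gave 3162 and 825 UMIs, 5.94-fold lower (-2.57, -2.68 to -2.46). Over a whole library, fewer C1q-making cells and less C1q RNA per cell cannot be told apart. The intervals of the genes did not overlap, so C1qa had the largest and C1qb the smallest difference beyond counting error. In the C1q-positive cells C1qa supplied 22.4% of the C1q UMIs in DMSO (21.1% to 23.8%) and 4.14% in DAB (2.16% to 7.12%). The lower DAB share was that of the 8 cells without high Pf4 and Wfdc17 (5 of 265, 1.89%), while in the 6 with them C1qa supplied 7 of 25 (28.0%, 12.1% to 49.4%), against 18.1% (16.1% to 20.2%) in such DMSO cells. C1qa was at 0 in 13 of 101 DMSO cells and in 8 of 14 DAB cells.

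**Figure D2:**
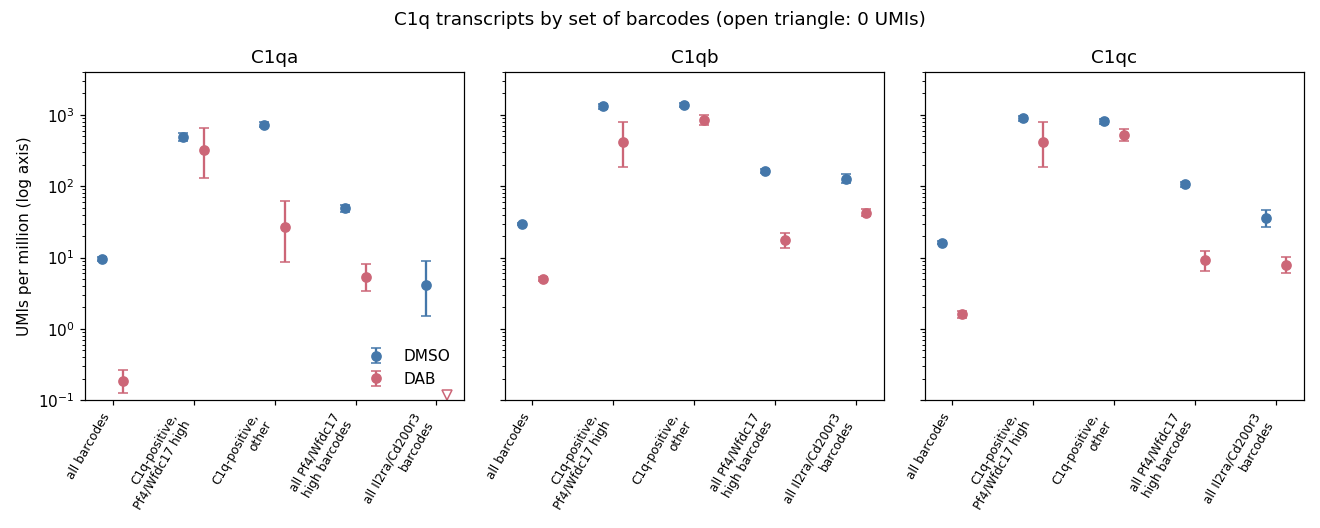
CPM (log y axis, with exact 95% Poisson intervals) of C1qa, C1qb and C1qc in 5 sets of barcodes of the DMSO (blue) and DAB (red) libraries. In C1q-positive cells without high Pf4 and Wfdc17, C1qa was 726 CPM in DMSO and 26.7 CPM in DAB while C1qb was 1362 and 858 CPM.

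Genes that stood out in the C1q-positive cells were first described against all other barcodes of their own library, without a test, since the rule used the same cells. Apart from the C1q genes, those highest in both libraries were Cck, Ccl7, Pf4, Wfdc17, Mmp13, Ppbp, Ccl17, Tanc2, Lgmn, Ly86, Crip1 and Fabp5, among 1952 genes with at least 50 CPM in the cells of each library. Pf4, the platelet factor CXCL4 that some macrophages also make, was at 2448 CPM in C1q-positive DMSO cells against 70.3 elsewhere, and at 1122 against 103 in DAB. Ccl7 was 117-fold and 27.6-fold higher than elsewhere, Wfdc17, a secreted antiproteinase-like protein, 9.73-fold and 41.0-fold, and Lgmn, the lysosomal protease legumain, 4.97-fold and 3.82-fold. The DMSO value of Ccl7 came from 10 of 101 cells, and 1 of them held most of its UMIs. Ccl17, a chemokine of alternatively activated cells, was carried by 1 cell in DAB, which held all of its 364 UMIs. In DMSO Aif1, an actin-binding protein of macrophages, was 12.5-fold and Ccl2 12.5-fold higher than in the other barcodes, and Ccl2 was 2.06-fold higher in DAB.

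Within the DMSO library the C1q-positive cells could be divided into 2 kinds. The divide was placed at 10 per 10000 of Pf4 and Wfdc17 together, a limit set after their values had been seen, which gave 55 Pf4/Wfdc17-high cells (median 8476 UMIs) and 46 Pf4/Wfdc17-low cells (median 18322.5 UMIs). The divide was not sharp, since 14 of 101 cells lay between 5 and 20 per 10000. Surface class II genes (H2-Aa, H2-Ab1 and H2-Eb1 together at 30 or more per 10000) were carried by 4 of 55 high cells and by 28 of 46 low cells. Mmp12 at 10 or more per 10000 was found in 44 of 55 and 26 of 46, and 7 of 46 low cells had neither. Summed C1q had medians of 24.1 and 20.2 per 10000 in the high and low cells, but C1qa was at 486 CPM (429 to 548) in the high and 726 CPM (670 to 787) in the low cells, or 18.1% (16.1% to 20.2%) and 25.0% (23.3% to 26.8%) of their C1q UMIs. Doublet calls fell on 3 of 55 and 5 of 46 cells.

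**Figure D3:**
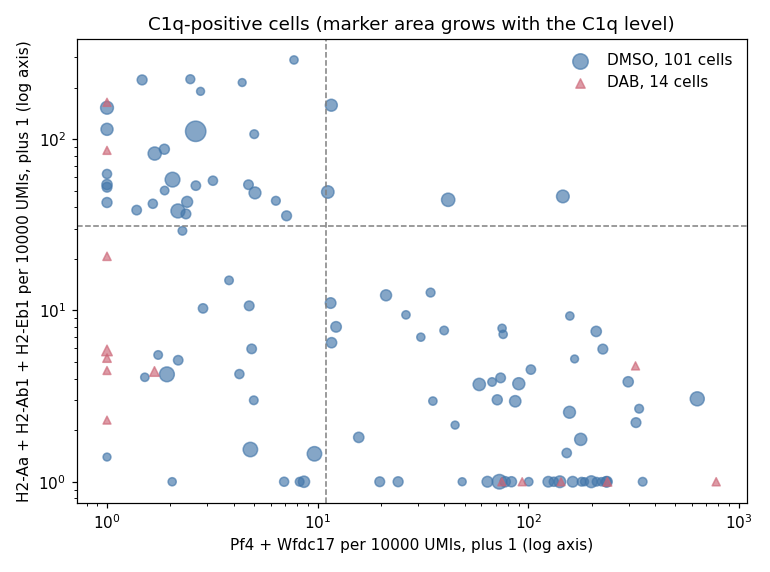
Each point is one C1q-positive cell, placed by its Pf4 and Wfdc17 level (x axis) and its level of 3 MHC class II genes (y axis), both per 10000 UMIs plus 1 on log axes, with dashed lines at 10 and 30. In DMSO (blue) 4 of 55 cells right of the vertical line lie above the horizontal one, against 28 of 46 cells left of it.

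Between these kinds 272 of 2644 genes tested differed at least 2-fold with an interval that excluded equal levels, a background of 10.3%, with 105 higher (3.97%) and 167 lower (6.32%) in the Pf4/Wfdc17-high cells. Pf4 and Wfdc17 are among the 105 but chose the cells, so they are not findings. Ratios below are those of the Pf4/Wfdc17-high over the low cells, on a log2 scale, and the median over all genes tested was -0.10.

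Several chemokines were higher in the Pf4/Wfdc17-high cells. Ppbp, a neutrophil-attracting CXC chemokine precursor, gave 218 UMIs against 0, at least 111-fold higher by the floor of 3 counts over the group. Ccl7 gave 70 against 0 (at least 35.6-fold), although 57.1% of these came from one cell. Ccl2, which draws monocytes through CCR2, was at 480 CPM against 33.9 (log2 ratio 3.83, 3.26 to 4.44), and Cxcl3 at 868 against 121 (2.84, 2.53 to 3.17). Of 8 CC chemokine genes that passed the filter on low counts, 5 were higher and 1 was lower, with a median of 1.53. That exception was Ccl24, an eosinophil-attracting chemokine of alternatively activated macrophages, at 320 CPM in the high cells and 1749 CPM in the low cells (-2.45, -2.69 to -2.22). Cck, which encodes the hormone cholecystokinin, gave 74 UMIs against 0.

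Some genes of phagocytes and of lysosomes were also higher in the Pf4/Wfdc17-high cells. Lyz2 was at 9203 against 2352 CPM (1.97, 1.89 to 2.04), and Fabp5, a fatty acid binding protein, at 2729 against 215.5 CPM (3.66, 3.44 to 3.90). Gpnmb, a glycoprotein of lipid-laden macrophages, was at 1949 against 396 CPM (2.30, 2.12 to 2.48), although of 14 lipid handling genes in all 2 were higher and 4 lower (median 0.01). Of 30 lysosome genes 8 were higher and 1 lower (median 0.53), among them the cathepsins Ctsl (1.91), Ctsb (1.75) and Ctsd (1.65). Of 13 genes of matrix and proteases 6 were higher and none lower (median 0.84), with the collagenase Mmp13 at 123 UMIs against 0 and the neutrophil collagenase Mmp8 at 1007 against 328 CPM (1.62, 1.41 to 1.83). Without Pf4, 5 of 14 macrophage identity genes were higher (median 0.74), Msr1, a scavenger receptor, being one (1.16, 0.84 to 1.49). Csf1r, the receptor of M-CSF, was at 205 and 235 CPM, Adgre1, encoding F4/80, at 260.5 and 251 CPM, and Aif1 at 159 and 150 CPM, so these macrophage genes were alike within counting error in both kinds.

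MHC class II genes were higher in the Pf4/Wfdc17-low cells. Of 7 MHC class II genes 6 were lower in the high cells and none higher, with a median of -2.47. Cd74, the class II chaperone, was at 1964 CPM in the high and 9152 CPM in the low cells (-2.22, -2.31 to -2.13), and H2-Eb1 at 166 and 1194 CPM (-2.84, -3.17 to -2.53). Irf4, a transcription factor of alternative activation and of dendritic cells, was at 31.4 and 94.4 CPM (-1.59, -2.44 to -0.82). Mgl2, a lectin of both those cell types, was at 412 and 1919 CPM (-2.22), and Cst3, encoding cystatin C, at 835 and 3023 CPM (-1.86). Il4i1, a secreted amino acid oxidase, gave 1 UMI in the high cells and 75 in the low cells, and Asgr2, a lectin receptor, gave 7 and 382. Fdps, an enzyme of sterol synthesis, was at 72.1 and 323 CPM (-2.17, -2.69 to -1.68). In contrast, 10 MHC class I genes gave no call in either direction. Neutrophil genes summed to 5307 CPM in the high and 4930 in the low cells, with Wfdc21 leading in the former and S100a9 in the latter (the ratio of S100a9 turned from lower to higher in the high cells, at 1.40, without doublets), and monocyte genes to 556 and 753 CPM, but the neutrophil genes differed singly, with 2 of 7 higher and 4 lower in the high cells (median -1.05). Their part in single genes was not tested.

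**Figure D4:**
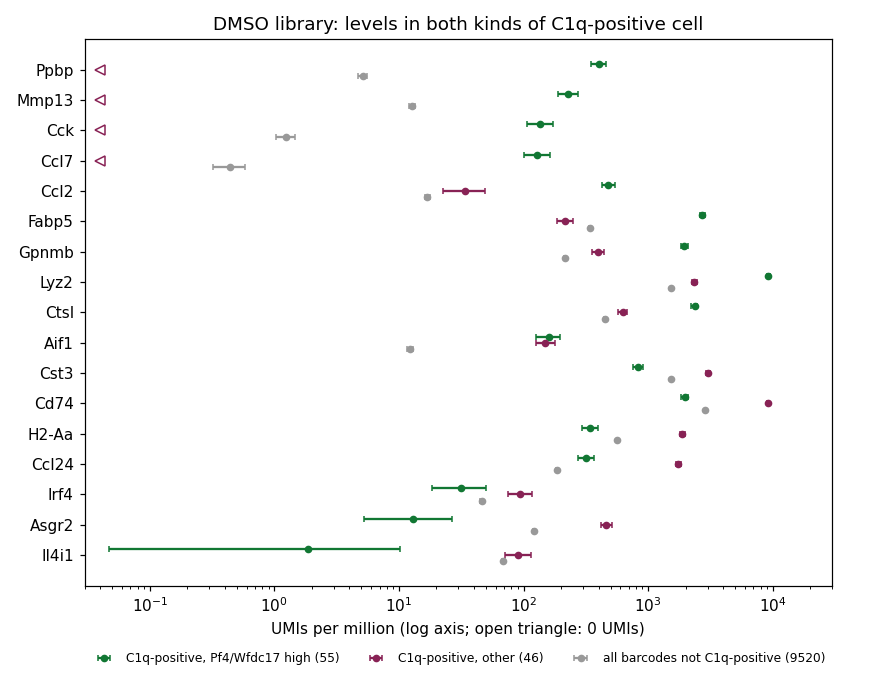
Levels in the DMSO library (CPM on a log x axis, exact 95% Poisson intervals) of 17 genes in Pf4/Wfdc17-high C1q-positive cells (green), Pf4/Wfdc17-low C1q-positive cells (purple) and all other barcodes (grey), with open triangles for 0 UMIs. Aif1 was above the grey point in both kinds, while Cd74 was at 9152 CPM in the purple and 1964 CPM in the green set.

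Each kind was then set beside DMSO barcodes that shared some of its genes but were not C1q-positive. Pf4/Wfdc17-high barcodes numbered 498, of which 55 (11.04%) were C1q-positive, and the C1q-positive share was larger at higher Pf4 and Wfdc17, with 16 of 7755 barcodes under 1 per 10000 and 25 of 72 at 100 or more. Against the 443 not C1q-positive, the C1q-positive ones had more Pf4 itself (5985 against 1027 CPM), so the sets also differed in the gene that chose them. Aif1 was at 159 against 15.7 CPM (log2 ratio 3.34, 2.89 to 3.79), Ccl2 at 480 against 78.3 CPM (2.62, 2.39 to 2.84), and Ly6a, the surface protein Sca-1, at 682 against 125 CPM (2.45, 2.27 to 2.64). Ccl12, a further CCR2 ligand, was at 61.0 against 1.12 CPM (5.77, 4.49 to 7.31). S100a8 was lower, at 843 against 8061 CPM (-3.26), as was Chil3, a secreted chitinase-like protein of immature monocytes, at 96.1 against 1937 CPM (-4.33). The share of S100a8 and S100a9 in the comparison barcodes moved with these results, and its part in them was not tested.

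The 28 Pf4/Wfdc17-low cells with class II genes at 30 or more per 10000 were set beside 571 DMSO barcodes with as much class II and no C1q UMI. They had more Lyz2 (1307 against 362 CPM, log2 ratio 1.85, 1.73 to 1.97) and more Msr1 (121 against 26.0 CPM, 2.21, 1.78 to 2.63). Mertk, a receptor for the uptake of apoptotic cells, was at 53.3 against 11.6 CPM (2.20, 1.53 to 2.81). Ccl22, a dendritic cell chemokine, was lower, at 24.6 against 466 CPM (-4.25, -5.20 to -3.44), and Ccl5 gave 0 UMIs against 295 CPM. Barcodes with Ccr7 and Fscn1 were not left out of the 571, unlike in the rule for C1q-positive cells. The part of such dendritic cells in the values of Ccl22 and Ccl5 was not tested. Msr1 was thus higher than in the counterpart in both kinds, since it was at 366 against 144 CPM in the Pf4/Wfdc17-high cells (1.34, 1.11 to 1.57). The 70 DMSO cells with Mmp12 at 10 or more per 10000 were set beside 1224 barcodes with as much Mmp12 and no C1q UMI, and Aif1 was at 148 against 8.52 CPM (4.12, 3.80 to 4.44).

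Levels in DMSO were also read by the C1q level of the cells. At 10 to 20, 20 to 40, and 40 or more C1q UMIs per 10000 there were 44, 41 and 16 cells, with median depths of 10376, 11247 and 16337 UMIs. Ccl7 was at 7.34, 46.04 and 155 CPM, but one cell held all 40 Ccl7 UMIs of the last range and one held 80.8% of the 26 in the middle range. Mertk was at 34.9 (21.0 to 54.5), 44.3 (28.6 to 65.4) and 54.3 CPM (29.7 to 91.1), with overlapping intervals. Csf1r (248, 189.5 and 244 CPM) and Mmp12 (2356, 3253 and 2599 CPM) showed no order with C1q, and Pf4 (2593, 2387 and 2277 CPM) and H2-Aa (1241, 1257 and 1373 CPM) differed by less than 1.5 times. These are descriptions over cells of 1 library.

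In DAB the 14 C1q-positive cells can be described one by one. Of these, 6 were Pf4/Wfdc17-high, with 1835 to 7165 UMIs, and held 2 to 8 C1q UMIs each and C1qa in 5 of 6. Ccl7 was present in all 6 of them, at 2, 3, 4, 6, 8 and 12 UMIs, and in none of the other 8. Mmp12 (3 to 32 UMIs) and Spp1, encoding osteopontin (3 to 83 UMIs), were also in every one. The other 8 cells had 2890 to 56325 UMIs and 3 to 70 C1q UMIs, of which C1qa supplied 5 of 265 (1.89%, 0.615% to 4.35%), all in the cell of 56325 UMIs. F4/80 transcripts (Adgre1) were found in all 8, Cd200r3, an activating receptor of basophils and mast cells, in 7, and Il2ra, the alpha chain of the interleukin 2 receptor, in 6. Retnla, a secreted resistin-like protein induced by interleukin 4, was found in 5 of these 8 cells, at 31, 64, 127, 205 and 865 UMIs. The cell of 56325 UMIs had all of the Ccl17 and 203 S100a9 UMIs.

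**Figure D5:**
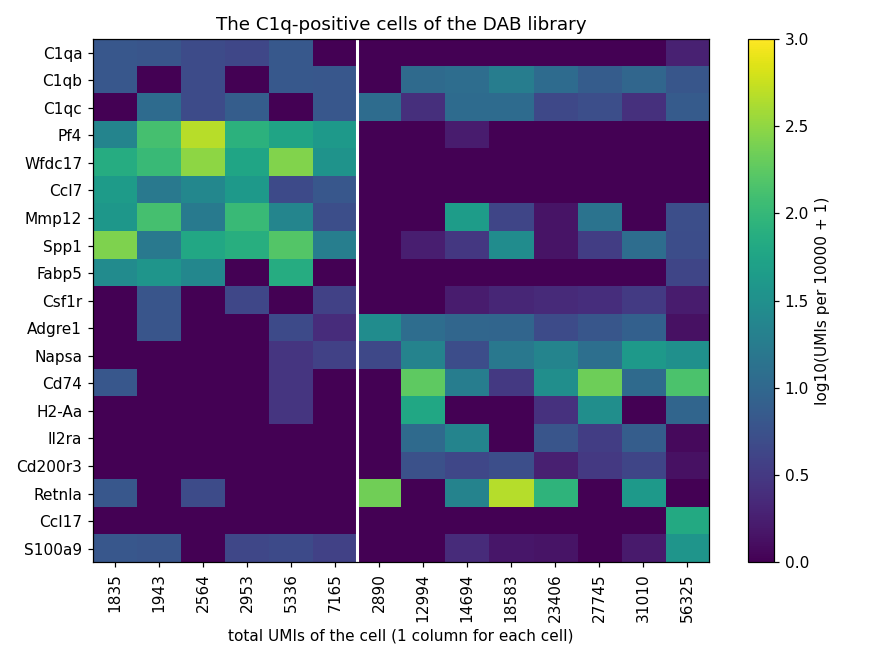
Level of 19 genes (rows, log10 of UMIs per 10000 plus 1) in each of the 14 C1q-positive cells of the DAB library (columns, labelled with the cell's total UMIs), with a white line between the 6 Pf4/Wfdc17-high cells on the left and the other 8. Ccl7 is present in all columns on the left and in none on the right, and Adgre1 in every column on the right.

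Barcodes with Il2ra and Cd200r3 together at 5 or more per 10000 and no Mcpt8, a basophil protease, were chosen after the DAB cells had been seen, and 4 of these 8 cells were among them. They numbered 80 of 9621 in DMSO and 374 of 11414 in DAB, 0.832% (0.660% to 1.03%) and 3.28% (2.96% to 3.62%), of which 2 and 4 were C1q-positive. They carried C1qb in 25 of 80 and 58 of 374 barcodes, but C1qa in only 1 of 80 and 0 of 374. Their C1q UMIs were of C1qb, C1qc and C1qa in numbers of 186, 52 and 6 in DMSO and of 340, 64 and 0 in DAB. C1qb and C1qc transcripts nearly without C1qa were therefore seen in both libraries. In the DAB set Adgre1 was at 595 CPM, against 533 CPM in the 8 C1q-positive cells, and Padi2, a protein deiminase, at 521 against 357 CPM. The C1q-positive cells had more Cst3 (7376 against 1338 CPM, 79.1% of it in one cell) and more H2-Aa (1130 against 256 CPM), with 78, 82, 48 and 4 UMIs in 4 cells (48 in the cell of 56325 UMIs) and 0 in the other 4.

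C1q was also compared between the Pf4/Wfdc17-high barcodes of both libraries. This comparison is not independent of the C1q rule, since these barcodes were chosen by genes high in the C1q-positive cells. They made up 5.18% of barcodes in DMSO (498, 4.74% to 5.64%) and 2.67% in DAB (305, 2.38% to 2.99%), and of these 55 and 6 were C1q-positive, 11.04% (8.43% to 14.1%) and 1.97% (0.725% to 4.23%). Summed C1q in all Pf4/Wfdc17-high barcodes was 321 CPM in DMSO and 32.0 CPM in DAB, 10.0-fold lower (log2 ratio -3.32, -3.59 to -3.07). C1qa (-3.17, -3.87 to -2.55), C1qb (-3.24, -3.61 to -2.89) and C1qc (-3.54, -4.06 to -3.06) had overlapping intervals there, unlike over the whole library. The C1q-positive cells supplied 1455 of the 1889 C1q UMIs of this set in DMSO and 25 of 130 in DAB. In the rest of the set C1qa was at 4.67 CPM in DMSO and 3.72 CPM in DAB, C1qb at 49.5 and 15.4 CPM, and C1qc at 26.9 and 6.94 CPM. At 100 or more per 10000 of Pf4 and Wfdc17, 25 of 72 DMSO and 4 of 34 DAB barcodes were C1q-positive. After thinning to 1000 UMIs a C1q UMI was present in 15.7% (12.6% to 19.2%) of the Pf4/Wfdc17-high DMSO barcodes and 5.90% (3.54% to 9.17%) of the DAB ones. Ccl7 differed in the opposite direction in the same barcodes. In those not C1q-positive it was at 7.10 CPM in DMSO (38 UMIs in 18 of 443) and 166 CPM in DAB (671 UMIs in 57 of 299), and in the C1q-positive ones at 129 CPM (70 UMIs in 10 of 55) and 1606 CPM (35 UMIs in 6 of 6, log2 ratio 3.63, 3.01 to 4.24).

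Transcript levels of the C1q-positive cells were then compared between DAB and DMSO. Of 2925 genes tested 528 differed at least 2-fold with an interval that excluded equality (18.1%), 139 higher in DAB (4.75%) and 389 lower (13.3%). Among the other barcodes 156 of 2964 did (5.26%). The median ratio over the genes was -0.22 on the log2 scale, which the values below should be read against, and when libraries were scaled by the median of gene ratios the split became 216 higher and 245 lower. Without the DAB cell of 56325 UMIs 192 genes were higher and 324 lower. Of the 209443 DAB UMIs 187647 came from the 8 Pf4/Wfdc17-low cells, so the balance of the kinds differed from DMSO. The comparison was therefore repeated in the low kind only, where 138 of 2923 genes were higher (4.72%) and 428 lower (14.6%), with a median of -0.27. A gene could pass the filter of 50 CPM through one library alone, which favours genes that differ. The lists were therefore also counted over 2651 genes with 50 CPM on average in the other barcodes, a filter added later that does not use the C1q-positive cells, by which 3.39% of genes were higher and 10.8% lower in DAB.

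Many genes of the amino acid response, which the kinase GCN2 induces through ATF4 when uncharged tRNA accumulates and which the study examined as a target of dabrafenib, were higher in the DAB cells. Of 17 genes that passed the filter 9 were higher and none lower, with a median of 1.32, and in the low kind 6 of 16 were higher with a median of 0.68. By the level in the other barcodes 9 of 21 were higher and none lower (median 0.86), and 7 of 21 in the low kind (median 0.63). Atf4 was at 84.9 CPM in DMSO and 239 CPM in DAB (log2 ratio 1.49, 0.98 to 1.98), and Phgdh, the first enzyme of serine synthesis, at 16.8 and 71.6 CPM (2.09, 1.05 to 3.09). Slc7a5, an amino acid transporter, was at 27.8 and 100 CPM (1.85, 1.01 to 2.66), and Psat1, a serine synthesis enzyme, at 27.8 and 95.5 CPM (1.78, 0.92 to 2.60). Asns, asparagine synthetase, was at 15.4 and 52.5 CPM (1.77, 0.57 to 2.89) from 8 of 14 DAB cells, and in the low kind its interval included equality (0.82, -0.58 to 2.06). The same list was higher in the other barcodes as well, with 14 of 25 genes higher, 1 lower and a median of 1.17. The 18 genes of the unfolded protein response gave 1 higher call and a median of 0.11.

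Several genes of lipid handling were lower in the DAB cells. Of 14 genes 9 were lower and none higher (median -1.67), with the same count of 9 in the low kind (median -1.60), against 3 of 13 lower in the other barcodes (median -0.69). By the level in the other barcodes 5 of 11 were lower (median -0.81), and 5 of 11 in the low kind (median -0.55). Hmgcs1, of sterol synthesis, was at 83.4 CPM in DMSO and 14.3 CPM in DAB (-2.54, -4.84 to -0.96), and Scd2, a fatty acid desaturase, at 358 and 81.2 CPM (-2.14, -2.93 to -1.45). Fabp5 was at 1211 and 353 CPM in all C1q-positive cells (-1.78, -2.13 to -1.44), but at 2729 and 2569 CPM in the Pf4/Wfdc17-high cells (-0.09, -0.50 to 0.30), so its difference was not seen within that kind. In the low kind it was at 215.5 and 95.9 CPM (-1.17, -1.96 to -0.47), with all 18 DAB UMIs in the cell of 56325 UMIs.

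Among uptake receptors and macrophage regulators more genes were lower than higher, and how many depended on the filter. That was also so over all genes, at 13.3% lower and 4.75% higher, or 10.8% and 3.39% by the level in the other barcodes. Of 12 efferocytosis genes 6 were lower (median -0.90), which were Axl, Itgb5, Mfge8, Lrp1, Scarb1 and Msr1, but by the level in the other barcodes 2 of 7 were (median -0.31). Without the DAB cell of 56325 UMIs, Itgb5, Lrp1 and Scarb1 were no longer counted as lower. Lrp1 was then under 2-fold (-0.78), while the ratios of Itgb5 (-1.56) and Scarb1 (-1.60) stayed past 2-fold. Mfge8, a bridge between apoptotic cells and phagocytes, was at 146 CPM in DMSO and 14.3 CPM in DAB (-3.35, -5.64 to -1.78), with 3 UMIs in 2 DAB cells. Of 18 transcription factors of macrophages and monocytes 1 was higher and 6 were lower (median -0.69), and by the level in the other barcodes 2 of 12 were lower (median -0.54). Maf, a transcription factor of macrophages, was higher, at 16.1 and 95.5 CPM (2.57, 1.62 to 3.51), from 22 UMIs in DMSO and 20 in 6 DAB cells. In the low kind it gave 3 and 14 UMIs, under the filter of 20, so it was not tested there.

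Of the 24 proliferation genes 6 could be tested, and these were lower in the DAB cells (median -2.46), also in the low kind (median -2.67), against none of 6 in the other barcodes (median -0.25). By the level in the other barcodes 6 genes were tested too and 6 were lower (median -2.46). The replication genes Mcm3, Mcm5 and Mcm6 were under the filter and did not show this, at 30.7, 16.1 and 30.7 CPM in DMSO and 23.9, 28.6 and 28.6 CPM in DAB, the last 3 from 5, 6 and 6 UMIs. Mki67 and Birc5 each gave 84 UMIs in DMSO and 0 in DAB, and Top2a 91 and 2. At least 2 UMIs of 5 division genes (Mki67, Top2a, Cdk1, Ccna2 and Birc5) were found in 30 of 101 DMSO cells, 14 of 55 in the high and 16 of 46 in the low kind, and in 0 of 14 DAB cells. After thinning a UMI of these genes was found in 11 of 101 (10.9%, 5.56% to 18.7%) and 0 of 14 (up to 23.2%), so the share of dividing cells was not distinguishable at this depth.

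Antigen presentation and glycolysis genes gave no call over all C1q-positive cells, while other groups were lower in part. The 7 MHC class II genes gave no call and a median of 0.00, with Cd74 at 6306 CPM in DMSO and 8317 CPM in DAB. In the low kind they gave no call either, with a median of -0.43. But in the Pf4/Wfdc17-high cells Cd74 was at 1964 and 91.8 CPM (-4.42, -7.47 to -2.56). H2-Aa (-2.89, -8.20 to -0.39) and H2-Ab1 (-2.71, -8.02 to -0.21) were also lower there, each with 1 DAB UMI. H2-DMa was not (-1.42, -3.71 to 0.15). The 10 MHC class I and 15 glycolysis genes gave no call. In the low kind 1 of 10 MHC class I genes was higher and no glycolysis gene was called. Of 30 lysosome genes 1 was higher and 7 were lower (median -0.43), against 13.3% lower and a median of -0.22 over all genes tested. Of 9 inflammatory genes 4 were lower (median -1.08), and of 9 genes of iron and haem 4 were lower (median -0.71). By the level in the other barcodes 2 of 5 and 4 of 8 of these were lower. Of 14 genes of matrix and proteases 4 were higher and 8 lower (median -1.03, but 0.42 when cells were averaged in place of UMIs). Of 5 complement genes tested 1 was higher and 2 were lower, and in the low kind 3 of 6 were higher and 1 lower. Cfp, encoding properdin, was higher (448 and 1447 CPM, 1.69, 1.49 to 1.89), Itgax, a subunit of complement receptor 4, lower (261 and 110 CPM, -1.25, -1.93 to -0.64), and C3 lower (125 and 52.5 CPM, -1.25, -2.28 to -0.38), although in the low kind C3 was not past the limit (-0.96, -2.01 to -0.05).

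Single genes with the largest ratios marked the Pf4/Wfdc17-low kind. Within it Cstdc5 gave 4 UMIs in DMSO and 104 in DAB (log2 ratio 6.84, 5.44 to 8.74). Over all C1q-positive cells Retnla was the highest, with a log2 ratio of 9.34 (8.57 to 10.3). It was at 9.51 CPM in DMSO (13 UMIs in 6 cells) and 6178 CPM in DAB (1294 UMIs in 7 cells). Of the latter 66.9% lay in 1 cell. Il2ra was at 16.8 and 411 CPM (4.61, 3.93 to 5.34), from 8 and 6 cells, and Padi2 at 15.4 and 320 CPM (4.38, 3.66 to 5.16), from 11 and 7 cells. Avil, an actin-severing protein, gave 1 UMI in DMSO and 29 in 5 DAB cells, and Cyp11a1, which starts steroid synthesis, 1 and 26 in 6 DAB cells. Cst3 and Napsa, an aspartic protease, were at 2157 and 6618 CPM (1.62) and at 416 and 2125 CPM (2.35), the former with 79.1% of DAB UMIs in one cell.

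Among the genes lowest in DAB were several that 20 or more of the DMSO cells carried. Ly6a gave 710 UMIs in 71 of 101 DMSO cells and 2 UMIs in 2 of 14 DAB cells (-5.77, -8.81 to -3.91). In the low kind alone the ratio was -5.28 (-8.33 to -3.41). Ccl24 gave 1618 UMIs in 56 DMSO cells and 5 in 2 DAB cells (-5.63, -7.26 to -4.41). Asgr2 gave 389 UMIs in 20 DMSO cells and 0 in DAB, at least 19.9-fold lower. Tfec, a transcription factor of the MITF family expressed in macrophages, gave 96 UMIs in 48 DMSO cells and 1 in DAB (-3.88, -9.20 to -1.37). Saa3, an acute phase protein, gave 310 and 0 UMIs, but 54.2% of the former came from one cell. Chil3 gave 213 UMIs in the low DMSO cells and 1 in the low DAB cells, but did not pass the filter on low counts without doublets. The other barcodes differed far less in Ccl24 (186 and 130 CPM) and in the opposite direction in Ly6a (85.5 and 201 CPM), a difference between the sets of cells that was not tested.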

How the data were processed

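Single cells of 2 libraries, 1 from DMSO and 1 from DAB, were analysed from the raw UMI counts per gene and barcode that the authors deposited. Cell Ranger 7.0.0 is named in the submitters' processing notes together with an mm10 reference; R 4.1.2 and Seurat 4.3.0 in those notes served the authors' own clustering, which was not used here. Barcodes with at least 1000 UMIs and at most 10% mitochondrial UMIs were kept, and C1q-positive cells were taken by the rule given above. UMIs were summed over cells and divided by the summed total (CPM). A gene was tested with at least 50 CPM in one set (between the kinds of DMSO cells, in both together) and 20 UMIs in all, and counted as higher or lower at a 2-fold ratio with an exact conditional binomial 95% interval excluding 0 on the log2 scale. Genes at 0 were set to a floor of 3 counts, and had no value where this floor lay past the level of the other set. Shares have Clopper-Pearson and CPM Poisson intervals, and both cover counting error only. Doublets were scored against simulated ones and not removed, except in an alternative. The ratio code was tested on simulated data. The cells and the 35 gene lists were chosen with earlier results of these data known. Named genes were those of the rule and its markers, the 15 most enriched in both libraries, the 15 highest and 15 lowest between libraries, and list members that were called or abundant; genes named in the comparison of both kinds, with like barcodes, and of single cells were chosen after their values were seen. A few genes that the rule names are not reported here. Analyses used Python 3.11.15, numpy 2.4.6, scipy 1.17.1, pandas 2.3.3 and scikit-learn 1.9.0.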

Additional observations from a re-analysis of the deposited data

Results flagged for a closer look

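In all, 5 genes differed past the 2-fold limit in one direction in the C1q-positive cells and in the opposite direction in the other barcodes of the same libraries. The difference between the sets was not tested. Ly6a had a log2 ratio of DAB over DMSO of -5.77 in the C1q-positive cells and 1.23 in the other barcodes. Tnfrsf9, the costimulatory receptor 4-1BB, had 1.38 (301 UMIs in DAB) and -1.25. Ccl22 had 2.08 in the C1q-positive cells, from only 11 DAB UMIs, and -1.90 elsewhere, and it did not pass the filter on low counts without the DAB cell of 56325 UMIs. Serpinb2, an inhibitor of plasminogen activation, had -1.20 and 1.46, and in the C1q-positive cells it was not past the limit without the DAB cell of 56325 UMIs (-0.81). Cd86, a costimulatory ligand, had -1.50, from 4 DAB UMIs, and 1.16, and its call in the C1q-positive cells was also lost without that cell (-1.47).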

How the results depend on the processing

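No paired analysis was possible because each condition has 1 library. Nothing here separates treatment from culture. The 14 DAB cells, 5 of which hold 3 or fewer C1q UMIs, set the precision of every ratio that uses them. A limit of 5 C1q UMIs per 10000 gave shares of 1.85% in DMSO and 0.298% in DAB, and a limit of 20 gave 0.593% and 0.0175% (log2 ratio -5.08). After thinning to 1000 UMIs 1 C1q UMI is enough to reach the limit. That setting took 192 DMSO and 54 DAB barcodes, or 2.00% and 0.473% (-2.08). The share was lower in DAB in each of these settings. The limit of 20 left 2 DAB cells, with 153 genes lower. Of the 139 higher and 389 lower calls only 39 and 47 were shared, and 35 called genes had the other sign. Among the named genes C3 (0.14) and Mmp13 (-0.25) changed sign. Birc5, Ccl7, Cd86, Hmgcs1, Lrp1, Mki67, Tfec and Top2a gave no value. They had 0 UMIs in these 2 DAB cells, and the floor of 3 counts lay above their DMSO level. Medians of lists with such genes were not computed. Choosing genes by their level in the other barcodes, a setting added later, gave 90 genes higher and medians of -0.81 for lipid handling, -0.46 for matrix genes and 0.64 for CXC chemokines (3 genes), the last with its sign turned. Scaling by the median of ratios gave 216 genes higher and 245 lower. An equal average of cells at 10 to 20 and at 20 to 40 C1q UMIs per 10000 gave 602 lower. That setting left out the 16 DMSO cells at 40 or more and gave 2 DAB cells the weight of the other 12. It also moved the first intervals with the ratios in place of computing them anew. Averaging over cells in place of UMIs turned the medians of CXC chemokines (0.45) and matrix genes (0.42), and Mmp12 (0.025), Pf4 (0.45), Ppbp (0.37) and Spp1 (0.45); 6 small DAB cells weigh more in it by construction. Between the kinds of DMSO cells, only cells of 5000 to 20000 UMIs gave a median of 1.79 for CXC chemokines (4.18 over all cells, from 4 genes that include Pf4, which chose the kinds), and Chil3 (0.049), S100a8 (2.68) and S100a9 (3.48) changed sign. S100a8 and S100a9 also did so without doublets (1.195 and 1.40), and S100a8 without cells over 20 per 10000 of these genes (1.35); the cause was not tested. A division at 30 per 10000 gave -3.24 for MHC class II and 2.89 for CXC chemokines. Library-wide C1q was -3.32 in Pf4/Wfdc17-high barcodes alone. Of 1227 values over all settings tried, 1040 were labelled unchanged. A gene called at first had to keep its direction and its call. A gene not called at first was labelled unchanged unless it came to be called in its first direction, so a turned sign was not counted there. Counts had to stay within 1.5 times, shares within their first interval, and medians of lists within the usual interval of their genes. Genes that failed the filter or gave no value were left out of the 1227.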
